A study of Mus musculus with 2 samples.

Results

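Plasmacytoid dendritic cells taken from mouse tumours were divided by whether a transcript of Cd4 was read in them, and the rest of their transcriptome was compared between the 2 classes. The cells are subcluster 0 of the authors' finer clustering (resolution 0.8), which holds 933 of the 5976 deposited cells, all of them inside the cluster that the authors named after Siglech. Of these, 931 carried a hashtag, taken here to mark a mouse, 648 had at least 1 Cd4 unique molecular identifier (UMI, 1 captured RNA molecule) and 283 had none. The classes were thus chosen by the Cd4 counts themselves, and Cd4 was left out of every test. Because detection of a gene depends on how deeply a cell was read, each mouse's cells were split into 10 bins of total UMIs and the same number of cells of either class was drawn from a bin, which left 277 cells with and 277 without a Cd4 UMI: 134, 47 and 96 of each class in mice 1, 2 and 3.

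The study is about JAML, an adhesion receptor of lymphocytes and myeloid cells, and its single-cell arm measured CD45+JAML+ cells sorted from tumour with droplet sequencing from the 5′ end of the transcript. The hashtag names give the tumour as B16F10, a mouse melanoma line, and carry the names isotype-CTRL I, II and III. The labels do not say in words that these are separate animals. The 3 hashtags are taken here as 3 mice of 1 experimental group, called mice 1, 2 and 3, and if they were not separate animals the errors and p-values would measure a technical spread. The sorted cells are named T cells in one label and TREG in another, while these cells carried the transcripts of plasmacytoid dendritic cells. Siglech UMIs were present in 99.8% of them and in 8.86% of the cells outside the Siglech cluster, and Ccr9 UMIs in 99.8% and 10.3%, so the cells are called plasmacytoid-like in what follows. Cells of 1 mouse share that animal, so genes were compared between classes over the 3 mice, while shares of cells by subcluster and by depth pool the cells of all mice.

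Plasmacytoid dendritic cells sense viral nucleic acids through endosomal Toll-like receptors and can release large amounts of type I interferon. They arise from progenitors with lymphoid features and often carry rearranged immunoglobulin genes without making antibody. CD4, known as the coreceptor with which helper T cells bind MHC class II, is also carried by many plasmacytoid cells, and subsets with more or less CD4 have been described. MHC class II molecules display peptides to CD4 T cells, and MHC class I molecules display them to CD8 T cells.

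Cd4 lies on chr6:124864692-124888221 on the minus strand (GENCODE M21 on mm10). A Cd4 UMI was found in 70.7%, 62.8% and 70.8% of the plasmacytoid-like cells of mice 1, 2 and 3, a mean of 68.1% ± 4.63 (SD, n = 3 mice). The summed level was 176, 158 and 186 CPM (UMIs scaled to a fixed total, as edgeR does), a mean of 173 ± 13.9 CPM. The 3 mice thus lay close together, mouse 2 lowest by both measures.

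Among the 931 cells, 283 had 0 Cd4 UMIs, 160 had 1, 158 had 2 and 330 had 3 or more, with a highest count of 16. The variance of the count over cells was 3.17, 4.02 and 3.04 times its mean in mice 1, 2 and 3, where counting error alone would give about equal values. Detection also followed depth: 52.1% of the cells in the lowest depth decile (median 10132 UMIs) had a Cd4 UMI, and 80.9% in the highest (median 17694.5 UMIs). A cell without a Cd4 UMI is therefore a cell in which none was read, and not a cell shown to lack CD4.

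At an equal depth of 7537 UMIs per cell, a Cd4 UMI was found in 55.6% of subcluster 0 (exact 95% interval 52.3 to 58.8%) and in 58.8% of subcluster 9 of the Siglech cluster (52.6 to 64.9%). In subcluster 13, the third of the Siglech cluster, the share was 7.83% (3.64 to 14.3%). The 13 subclusters outside the Siglech cluster lay between 0 and 2.44%, where the share alone does not tell free RNA from Cd4-expressing cells. Of these, subcluster 1 had the highest summed Cd4 level, 24.4 ± 14.1 CPM, against 11.4 ± 8.73 CPM in subcluster 13 (SD, n = 3 mice, without thinning). Without thinning, the shares were 69.6% in subcluster 0 (median 13482 UMIs), 67.5% in subcluster 9 (median 12510 UMIs) and 10.4% in subcluster 13 (median 19176 UMIs). The intervals cover counting error only.

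**Figure D1:**
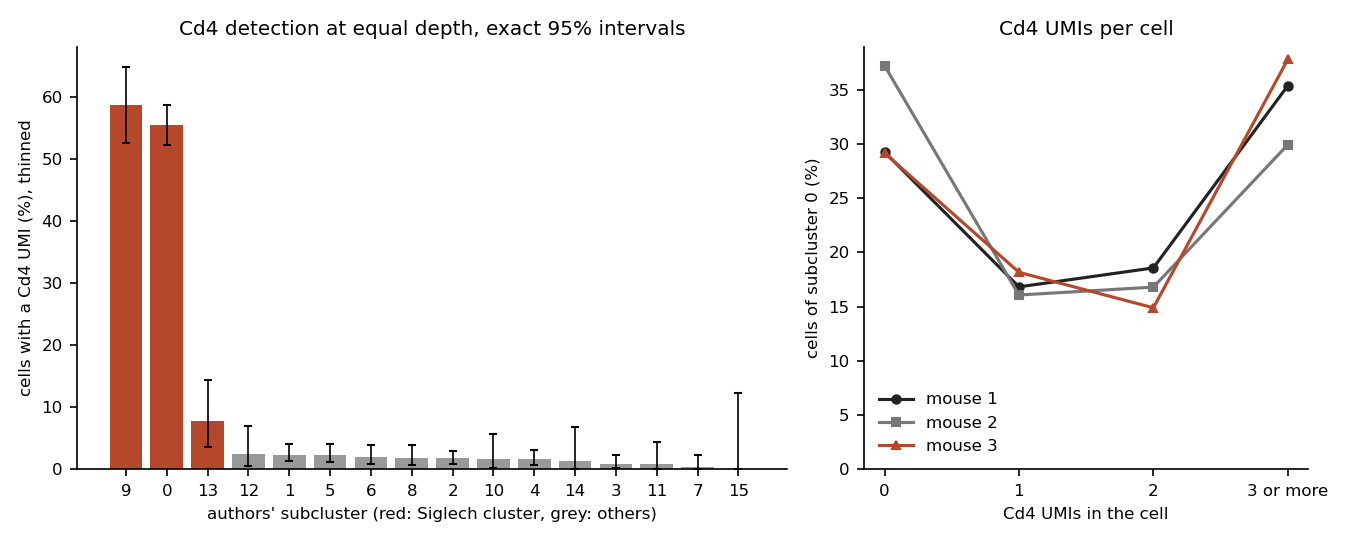
Left, percent of cells with at least 1 Cd4 UMI after thinning every cell to 7537 UMIs, by the authors' subcluster, with exact 95% intervals, the 3 subclusters of the Siglech cluster in red and the others in grey. Right, percent of subcluster 0 cells with 0, 1, 2 and 3 or more Cd4 UMIs in each of the 3 mice. Subcluster 0 stands at 55.6%, subcluster 9 at 58.8%, subcluster 13 at 7.83% and every other subcluster at or under 2.44%.

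The matched classes were alike in depth and in the measures of RNA quality at hand. Median depth was 13403.5, 13261 and 12562 UMIs per cell with a Cd4 UMI, against 13319, 13269 and 12478.5 UMIs without, in mice 1, 2 and 3. The median percent of mitochondrially encoded UMIs lay between 2.83 and 3.1% in cells with and between 2.81 and 2.87% in cells without a Cd4 UMI. The 7 plasmacytoid markers other than Cd4 summed to 16431 to 17473 CPM with and 15594 to 16069 CPM without a Cd4 UMI, and Cd3d, Cd3e, Cd3g, Trac and Trbc2 together to 57.9 to 89.8 CPM with and 50.8 to 75.0 CPM without, or with Cd8a and Cd8b1 added to 419 to 464 CPM with and 309 to 352 CPM without. Macrophage markers summed to 13.8 to 17.1 CPM with and 9.49 to 19.0 CPM without, and the 3 markers of type 2 conventional dendritic cells to 516 to 613 CPM with and 622 to 632 CPM without. Of the B cell markers Cd79a and Ms4a1, 1 UMI was found with and 30 without a Cd4 UMI, 28 of those 30 in a single cell.

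Of 8091 genes tested with edgeR's quasi-likelihood test on UMI sums per mouse, 137 passed an adjusted p of 0.05 (Benjamini-Hochberg). Of these, 85 were higher in cells with a Cd4 UMI (1.05% of the genes tested) and 52 were lower (0.643%). All 137 went the same way in 3 of 3 mice, which a test paired by mouse favours, and that share was not taken over all genes. In 116 of the 137, the 3 values with a Cd4 UMI did not overlap the 3 without. Of all 8091 genes tested, 1045 had no overlap. Most differences were small, with a median size of 0.58 on the log2 scale, while 15 genes were at least 2-fold higher and 8 at least 2-fold lower. Without mouse 2 the test called 55 genes higher and 26 lower, without the mouse as a block 36 and 16, and with DESeq2 25 and 15. Over 5 draws of the matched cells, which share nearly all cells without a Cd4 UMI, 46 genes were called higher and 30 lower in every draw.

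The 4 genes that encode the classical MHC class II molecules and their chaperone were higher in cells with a Cd4 UMI. H2-Ab1, the beta chain of the class II molecule I-A (chr17:34257689-34269419), stood at 1979.5, 1557 and 1761 CPM with a Cd4 UMI, against 1286, 820.5 and 1185 CPM without, in mice 1, 2 and 3. Every value with lay above every value without, and the log2 fold change was 0.70 ± 0.05 (SE, adjusted p = 2.9e-08). H2-Eb1, the beta chain of I-E, stood at 1227, 1095 and 1108 CPM with, against 765, 503 and 730.1 CPM without, again with no overlap (log2 fold change 0.78 ± 0.06, adjusted p = 1.9e-07). H2-Aa, the alpha chain of I-A, averaged 2084 ± 132 CPM with and 1325 ± 319 CPM without, and Cd74, the invariant chain that guides class II molecules through the cell, averaged 7119 ± 346 CPM with and 4813 ± 792 CPM without (SD, n = 3 mice). Mouse 2 was the lowest mouse without a Cd4 UMI for all 4 genes.

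Of the 11 class II presentation genes tested, 4 were called higher and none lower, and the median log2 fold change was 0.43, against 0.00028 over all genes tested. Ciita, the transcriptional activator of the class II genes, had 35.8, 23.8 and 31.8 CPM with and 28.5, 7.93 and 21.4 CPM without a Cd4 UMI, higher in each mouse, but its groups overlapped and it did not pass (adjusted p = 0.36). The peptide loading genes H2-DMa and H2-DMb1 had log2 fold changes of −0.07 and 0.17 and did not pass. Cathepsin S (Ctss), the protease that trims the invariant chain, had 0.03.

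Class II promoters carry a conserved set of short elements that includes an inverted CCAAT element, bound by the factor NF-Y. The RefSeq promoter windows (GRCm38.p6, 250 bases before to 50 after the start) of the class II genes H2-Aa and H2-Eb1, and of the class I gene H2-Q7 described next, are shown because these genes were higher together. Capitals mark ATTGG or its reverse complement CCAAT, searched on both strands. The windows are chr17:34287774-34288073 on the minus strand for H2-Aa, chr17:34305617-34305916 on the plus strand for H2-Eb1 and chr17:35438905-35439204 on the plus strand for H2-Q7.
H2-Aa: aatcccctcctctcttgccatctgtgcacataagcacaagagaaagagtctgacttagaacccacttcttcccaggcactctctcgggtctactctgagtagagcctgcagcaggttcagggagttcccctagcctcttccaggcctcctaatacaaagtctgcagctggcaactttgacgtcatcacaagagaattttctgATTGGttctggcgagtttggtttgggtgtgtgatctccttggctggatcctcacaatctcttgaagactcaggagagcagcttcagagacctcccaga
H2-Eb1: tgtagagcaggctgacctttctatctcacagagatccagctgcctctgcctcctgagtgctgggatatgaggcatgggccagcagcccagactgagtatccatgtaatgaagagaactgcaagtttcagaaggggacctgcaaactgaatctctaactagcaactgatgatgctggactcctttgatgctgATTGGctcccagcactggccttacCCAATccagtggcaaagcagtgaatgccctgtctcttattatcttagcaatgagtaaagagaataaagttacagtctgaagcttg
H2-Q7: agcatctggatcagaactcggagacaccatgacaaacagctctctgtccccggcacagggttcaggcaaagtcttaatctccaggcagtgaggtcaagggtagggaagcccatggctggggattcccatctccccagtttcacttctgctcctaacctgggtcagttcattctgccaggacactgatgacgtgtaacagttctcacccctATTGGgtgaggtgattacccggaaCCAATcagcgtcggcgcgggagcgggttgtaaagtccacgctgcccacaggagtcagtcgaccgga
One match was found in the H2-Aa window, 2 in that of H2-Eb1 and 2 in that of H2-Q7. Of the 9 windows of the class II list (8 genes), 7 held a match, and of the 16 windows of the class I list (15 genes) 13, while 37.4% of all 32851 windows did. A match is a description of the letters only.

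Of 17 class I presentation genes tested, 6 were called higher and none lower, with a median log2 fold change of 0.11. H2-Q7, a class I molecule of the Qa family, stood at 1372, 1123 and 1211 CPM with a Cd4 UMI, against 892, 874 and 836 CPM without (log2 fold change 0.54 ± 0.05, adjusted p = 4.4e-07). H2-Q6 stood at 211, 177 and 172 CPM with, against 81.5, 87.3 and 87.3 CPM without (1.18 ± 0.12). For both genes no value with overlapped a value without. H2-Q6 and H2-Q7 are near-identical copies whose reads can be split between them by the counting, so their separate folds are uncertain. H2-Q4 (0.44), H2-K1 (0.35), B2m (0.19) and H2-D1 (0.18), the last 3 being abundant classical class I chains and beta-2 microglobulin, made up the rest, and H2-K1 overlapped between classes.

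The immunoglobulin light chain constant genes Iglc2 and Igkc had the largest folds among the named genes that were higher. Iglc2, a lambda constant segment (chr16:19198396-19200351), stood at 234, 241 and 255 CPM with a Cd4 UMI, against 58.6, 55.5 and 75.0 CPM without (log2 fold change 1.95 ± 0.11, adjusted p = 1e-09). Igkc, the kappa constant segment (chr6:70726435-70726966), stood at 694, 585 and 538 CPM with, against 233, 262 and 200.2 CPM without (1.44 ± 0.07, adjusted p = 1.9e-10). Neither gene overlapped between classes. The share of cells with an Igkc UMI was 62.5% with and 41.5% without a Cd4 UMI, and that of cells with an Iglc2 UMI was 27.4% and 11.9%. Iglc3 (0.55) and Iglc1 (0.77) were called higher as well, and the 3 lambda segments are similar enough that reads can be exchanged among them. In cells without a Cd4 UMI, 62.7% of the Iglc1 UMIs came from 3 cells. Over all subcluster 0 cells, Iglc1 had 39.8 CPM with 0 Cd4 UMIs and 35.9 CPM with 1. The mu heavy chain gene Ighm stood at 1006, 998 and 978 CPM with, against 1017, 917 and 881 CPM without, and did not pass (0.10 ± 0.05, adjusted p = 0.51). Dntt, which adds bases at receptor gene joints, did not pass either (0.32, adjusted p = 0.24), and Cd24a, a surface protein of immature lymphoid cells, was lower (−0.73 ± 0.17). In all, 4 of 17 early lymphoid genes tested were called higher and 1 lower.

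Several genes by which plasmacytoid cells are known were higher, while Siglech itself did not pass. Klk1, a kallikrein protease (chr7:44225360-44229618), stood at 1600.0, 1934 and 1031 CPM with a Cd4 UMI, against 740.4, 997 and 461 CPM without (log2 fold change 1.10 ± 0.05, adjusted p = 7.6e-12). The mice differed in their Klk1 level, mouse 3 being lowest in both classes, and every value with exceeded every value without. Klk1b27, a similar kallikrein gene, followed at 0.72 ± 0.09, and reads of the kallikreins can be hard to separate. Siglech, the sialic acid binding receptor that names the cluster, stood at 2278, 2119.8 and 2254 CPM with, against 2248, 2159.8 and 2072 CPM without (0.06 ± 0.04, adjusted p = 0.66). The transcription factors Tcf4, Irf8 and Bcl11a, which set or keep the plasmacytoid fate, had log2 fold changes of 0.04, 0.03 and 0.0021 and did not pass. Of the 30 identity genes tested, 7 were higher and none lower, with a median of 0.08. The 4 of these other than Klk1, Lag3 and Klra17 changed little: Ccr9, the receptor for the gut chemokine CCL25 (0.27), Pld4, a lysosomal exonuclease (0.24), the inhibitory receptor Lair1 (0.22) and the ribonuclease Rnase6 (0.19). Ccr9 was called in 3 of the 5 draws.

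Of 11 maturity and subset genes of plasmacytoid cells tested, 2 were higher, Klra17 and Ccr9, and 1 was lower, the chemokine receptor Ccr2. Ccr2 had −0.75, and −0.45 without mouse 1, where its call was lost, and it was called in 3 of the 5 draws. Klra17, a lectin-like receptor also called Ly49Q that is gained as the cells mature, had 196, 151 and 129 CPM with and 139, 127 and 93.9 CPM without a Cd4 UMI (0.44 ± 0.11, adjusted p = 0.044). Its groups overlapped, it was called in 1 of 5 draws, and it did not pass when any of the 3 mice was left out (0.39 to 0.50). Ly6c2 (−0.09, adjusted p = 0.24) and Ly6a (0.06, adjusted p = 0.72), Ly6 family surface proteins, did not pass. Jaml, the protein of the sort, stood at 528, 539 and 454 CPM with, against 486, 495 and 410.4 CPM without (0.15 ± 0.06, adjusted p = 0.36).

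**Figure D2:**
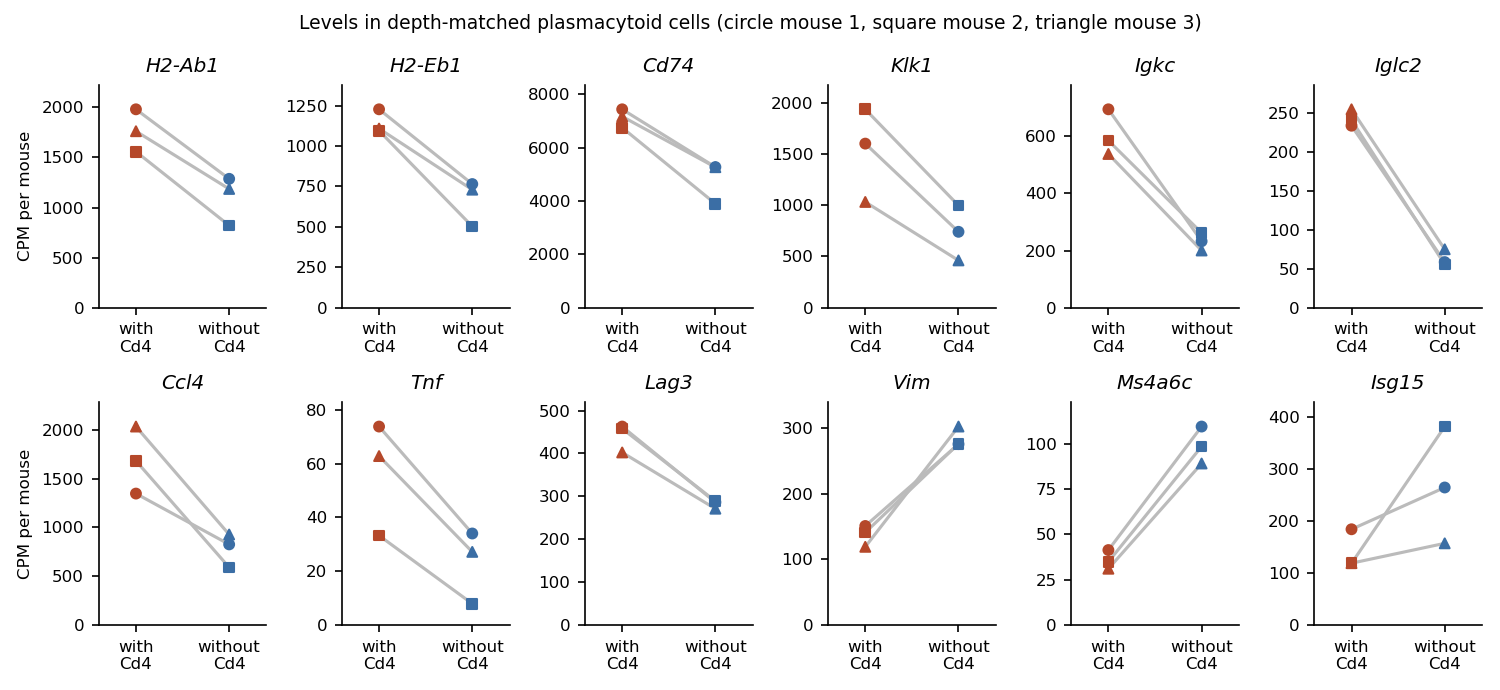
Level in CPM of 12 genes in each of the 3 mice, in depth-matched cells with a Cd4 UMI (left, red) and without (right, blue), lines joining the classes of a mouse and each axis starting at 0. The first 9 genes were higher with a Cd4 UMI in every mouse and the last 3 lower in every mouse; Tnf and Isg15 overlap between classes across mice, and the other 10 do not.

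Lag3, the nearest gene on one side of Cd4 (chr6:124904361-124911705, 16139 bases away), encodes an inhibitory receptor that like CD4 binds MHC class II. It stood at 463, 458 and 402 CPM with a Cd4 UMI, against 286, 289 and 271 CPM without. The classes did not overlap (log2 fold change 0.66 ± 0.07, adjusted p = 2.5e-06). It was the 1 gene called of the 10 tested around the Cd4 locus. Ptms, the next gene beyond Lag3, stood at 717, 686 and 662 CPM with, against 682, 571 and 584 CPM without (0.18 ± 0.05, adjusted p = 0.14). The remaining neighbours had log2 fold changes from −0.68 to 0.15.

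Of the 10 tested genes whose proteins bind CD4 or carry its signal, or stand beside it in the membrane, 4 were higher: the 3 class II chains and the Src family kinase Fyn (0.32 ± 0.07). Lck, the kinase bound by CD4 in T cells, had too few UMIs to be tested. Among 14 tested regulators of Cd4, known mostly from T cells, 1 was lower and none higher. It was Runx1, a Runt factor that represses Cd4 in developing mouse T cells, at 57.3, 68.1 and 49.0 CPM with, against 83.1, 125 and 78.3 CPM without (−0.64 ± 0.13, adjusted p = 0.0077). The classes did not overlap, but the call was lost without mouse 2 (−0.57) and without mouse 3 (−0.65). Zbtb7b, which directs T cells to the CD4 lineage, had −0.22 (adjusted p = 0.91).

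Cd8b1, the beta chain of the CD8 coreceptor, was higher, while its partner Cd8a was not. Cd8b1 stood at 288, 328 and 255 CPM with a Cd4 UMI, against 228, 156 and 143 CPM without, with no overlap (log2 fold change 0.69 ± 0.11, adjusted p = 0.00074). Cd8a stood at 87.0, 66.5 and 106 CPM with, against 68.6, 103 and 102 CPM without (0.05 ± 0.15, adjusted p = 0.97). T cell receptor and Cd3 UMIs were found in 74, 29 and 57 cells with and in 77, 32 and 53 cells without a Cd4 UMI in mice 1, 2 and 3. Of 11 T cell genes tested, Cd8b1 was the 1 called. When all cells with any such UMI were removed, 104 cells per class remained, and Cd8b1 no longer passed (0.36, adjusted p = 0.83), while H2-Ab1 (0.47), Klk1 (0.93), Igkc (1.33), Ccl4 (0.86) and Vim (−0.64) still did. Lag3 (0.51, adjusted p = 0.054), Tnf (0.93, adjusted p = 0.58), Ms4a6c (−0.62, adjusted p = 0.44) and Ifitm3 (−0.09, adjusted p = 0.98) did not pass in those cells. When only cells with 3 or more such UMIs were removed, an alternative chosen after seeing the data, Cd8b1 still passed (edgeR adjusted p = 0.00018).

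Of 8 cytokines and chemokines tested, 3 were called higher and none lower. Ccl4, an inflammatory chemokine, stood at 1347, 1683 and 2034 CPM with a Cd4 UMI, against 826, 590.3 and 928 CPM without (log2 fold change 1.08 ± 0.08, adjusted p = 6.1e-08). Tnf, the inflammatory cytokine, stood at 73.8, 33.3 and 62.8 CPM with, against 34.0, 7.93 and 27.2 CPM without. Its value in mouse 2 with a Cd4 UMI lay under that of mouse 1 without, so the groups overlapped across mice, and within each mouse it was higher (1.24 ± 0.17, adjusted p = 0.00017). Ccl3, a chemokine related to Ccl4, had 211 CPM with a Cd4 UMI in mouse 3, and no value above 89.2 CPM elsewhere. In each class 3 cells held a large part of its UMIs, 35.3% with and 42.9% without a Cd4 UMI. Its call (1.17 ± 0.24) was lost without mouse 2 (1.12) and without mouse 3 (0.54), and its log2 fold change was 2.01 without mouse 1. Ltb, the membrane-bound lymphotoxin beta, was higher by 1.23 ± 0.18, with the call lost without mouse 1 (0.88, adjusted p = 0.052).

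Other genes that the naming rule took among the largest folds were Pgam2, a muscle-type glycolytic enzyme (1.29 ± 0.11), Hsd11b1, which regenerates active glucocorticoid (1.25 ± 0.11), the membrane glycoprotein Gpm6b (1.15 ± 0.20) and the protease inhibitor Serpinb6b (0.99 ± 0.25). Pgam2 stood at 216, 179 and 153 CPM with, against 93.7, 73.0 and 60.2 CPM without. Hsd11b1 stood at 219, 247 and 153 CPM with, against 88.7, 100.0 and 73.3 CPM without, and neither gene overlapped between classes. Among the lower genes it took the transporter Slco3a1 (−0.88), lost without mouse 2 (−0.83) and without mouse 3 (−0.86), the glutamate receptor subunit Gria3 (−0.81), lost without mouse 1 (−0.73), the phosphatase Inpp5b (−0.82), lost without mouse 2 (−0.57), and the GTPase Gem (−0.75), lost without mouse 1 (−0.78) and without mouse 2 (−0.65). Inpp5b and Gem were each called in 1 of the 5 draws. Serpinb6b lost its call without mouse 2 (0.91) and without mouse 3 (0.62), with 1.95 without mouse 1. It was called in 3 of the 5 draws.

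Of 15 nucleic acid sensing genes tested, 2 were higher and none lower. Tlr12, an endosomal receptor of mice that recognises profilin of protozoa, had 52.9, 66.5 and 42.4 CPM with and 26.8, 36.5 and 23.9 CPM without (0.93 ± 0.17), with the call lost without mouse 1 (0.86, adjusted p = 0.052). Ctsl, the cathepsin that processes endosomal Toll-like receptors, was higher by 0.23 ± 0.03. Tlr7 and Tlr9, the receptors for single-stranded RNA and CpG DNA, had 0.12 and −0.28 and did not pass. Of 17 immediate early genes, 3 were higher, Jun (0.41), Btg2 (0.35) and Jund (0.23), and Fos had −0.17 (adjusted p = 0.11). Btg2 and Jund lost their calls without mouse 1 (0.22 and 0.11) and without mouse 2 (0.32 and 0.26), Btg2 had 0.53 without mouse 3, and Jun kept its call without mouse 1 at 0.22. Jun and Jund overlapped between classes. None of the 3 passed with DESeq2, nor in edgeR without the mouse as a block (adjusted p = 0.205 for Jun, 0.11 for Btg2 and 0.811 for Jund).

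Genes lower in cells with a Cd4 UMI included Vim, Ms4a6c, Ifitm3 and Crip1, all abundant in subcluster 13 of the Siglech cluster, at 2405, 969, 2316 and 2164 CPM. Their highest means in subclusters outside the Siglech cluster were 2518, 1257, 4714 and 3345 CPM, so high levels were not particular to subcluster 13. Vim, the intermediate filament protein vimentin (chr2:13573927-13582826), stood at 151, 141 and 119 CPM with a Cd4 UMI, against 276, 276 and 302 CPM without (log2 fold change −1.03 ± 0.10, adjusted p = 1.4e-06). Ms4a6c, a tetraspan membrane protein of myeloid cells, stood at 41.3, 34.9 and 31.0 CPM with, against 109, 98.4 and 89.0 CPM without (−1.44 ± 0.13, adjusted p = 9e-07). Neither gene overlapped between classes. Ifitm3, a restriction factor against virus entry, averaged 99.8 ± 12.3 CPM with and 187 ± 44.4 CPM without. Crip1, a LIM domain protein listed here for transitional dendritic cells, averaged 262 ± 3.52 CPM with and 384 ± 26.9 CPM without, the 1 call among 8 genes tested of that list. Itgax, which encodes CD11c, had −0.61 and just missed the threshold (adjusted p = 0.0501). Cd209a, a lectin of type 2 conventional dendritic cells, was lower (−0.56 ± 0.13), 1 call of 7 tested for that cell type, and lost its call without mouse 1 (−0.51) and without mouse 3 (−0.49). The aryl hydrocarbon receptor Ahr was lower (−1.13 ± 0.25) and lost its call without mouse 1 (−0.997) and without mouse 2 (−0.97).

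Outside the naming rule, and chosen after their values were seen, were Tmsb10, Actb, Actg1 and Pfn1. Tmsb10, an actin monomer binding peptide, stood at 873, 696 and 973 CPM with, against 1210.2, 1158 and 1239 CPM without (−0.47 ± 0.05). Beta-actin Actb averaged 9877 ± 124 CPM with and 11579 ± 789.6 CPM without (−0.21 ± 0.03). Its paralogue Actg1 (−0.31), with which it can exchange reads, and profilin Pfn1 (−0.26) were lower too, and none of these 4 overlapped between classes. Chosen likewise among the higher genes were Rgs1, a regulator of G protein signals (0.96 ± 0.13), and Plaur, the urokinase receptor (0.87 ± 0.09).

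Of 24 interferon response genes tested, 3 were lower and 1 higher, with a median log2 fold change of −0.10. Isg15, the ubiquitin-like protein induced by interferon, stood at 185, 119 and 119 CPM with, against 265, 382 and 157 CPM without. Its groups overlapped across mice, and its call (−0.76 ± 0.15, adjusted p = 0.0072) was lost without mouse 2 (−0.45). Isg20 (−0.85) and Ifi203 (−0.58) lost theirs without mouse 2 as well (−0.75 and −0.39). Isg20 was called in 3 of the 5 draws. Ly6e, a Ly6 family protein, was the higher member (0.19) and lost its call without mouse 2 (0.15). Of 14 lymphocyte receptors of migration tested, 2 were higher and 2 lower. Ccr2 was lower (−0.75 ± 0.15), was called in 3 of the 5 draws and lost its call without mouse 1 (−0.45). It did not pass in edgeR without depth matching (adjusted p = 0.496) or at a gate of 2 Cd4 UMIs (adjusted p = 0.429). The hyaluronan receptor Cd44 was higher (0.43 ± 0.07) and was called in 4 of the 5 draws. Selplg, the selectin ligand PSGL-1, was lower (−0.26), was called in 3 of the 5 draws and lost its call without mouse 1 (−0.19).

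The largest negative fold belonged to the heat shock protein gene Hspb1, and it rested on few cells. It stood at 20.4, 0 and 8.16 CPM with a Cd4 UMI, against 90.4, 4.76 and 140.1 CPM without, with overlapping groups. In either class most of its UMIs came from 3 cells, 71.9% without and 76.6% with a Cd4 UMI. After removal of cells above 1 in the authors' percent.hs column, the log2 fold change turned to 0.41 (adjusted p = 0.85). Of 9 other heat shock genes tested, the mitochondrial chaperonin Hspd1 was lower (−0.55 ± 0.12, lost without mouse 2 at −0.45). It too did not pass after that removal (−0.04, adjusted p = 0.97). None of the 20 secretory and unfolded protein genes was called, with a median of 0.05, and none of the 6 cell division genes, 4 markers of type 1 conventional or 4 of migratory dendritic cells was.

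**Figure D3:**
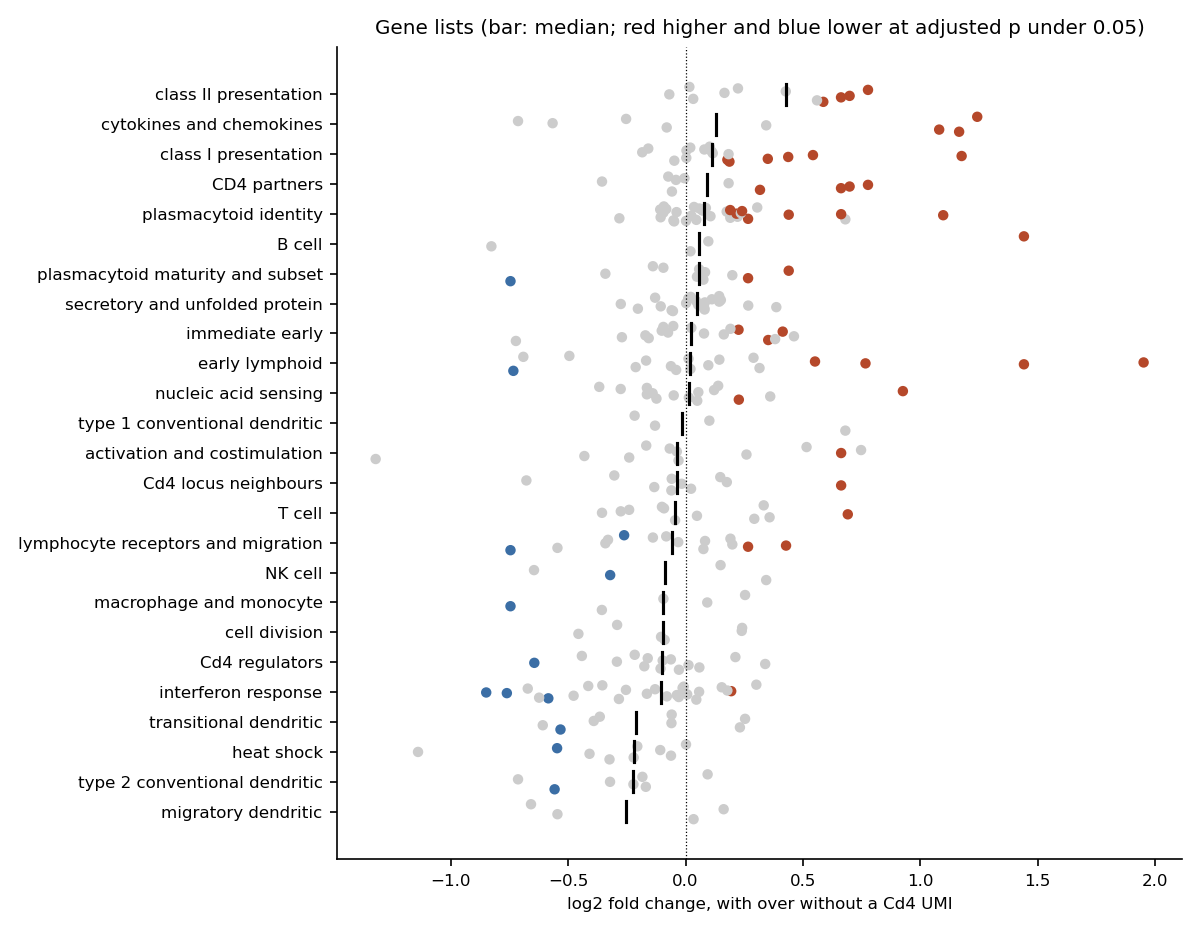
Log2 fold change, cells with over cells without a Cd4 UMI, of every tested member of the 25 gene lists, one list per line, with the list's median as a black bar. Members that passed an adjusted p of 0.05 are red where higher and blue where lower. Class II presentation has the highest median (0.43), and the highest single point is Iglc2 (1.95) among the early lymphoid genes.

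Across the number of Cd4 UMIs per cell, most of the called genes lay between the ends. Cells with exactly 1 Cd4 UMI are those nearest to the dividing line. Their mean lay to the called side of cells with 0 for 83 of the 85 higher and 52 of the 52 lower genes. This counts a difference of any size, such as that of Tnf, with 22.8 CPM at 0 and 23.1 CPM at 1. Ccr9 went the other way, from 1539 to 1469 CPM. The count is a description that uses the same cells in which the genes were called. Igkc had 226 CPM in cells with 0 Cd4 UMIs, 306 with 1, 492 with 2 and 719 with 3 or more (means of 3 mice). Klk1 had 736, 1226, 1245 and 1661 CPM, and Vim 284, 168, 154 and 105 CPM, in the same order. H2-Ab1 had 1094 CPM with 0, 1581 with 1, 1497 with 2 and 1929 with 3 or more, not in order at every step. A strict order over all 4 numbers was seen for 37 of the 85 higher and 28 of the 52 lower genes. Neither kind of count was taken over all genes tested, so they have no background to be read against. These cells were not matched for depth, whose median was 13061, 13363.5, 13664 and 13811.5 UMIs in the 4 classes.

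**Figure D4:**
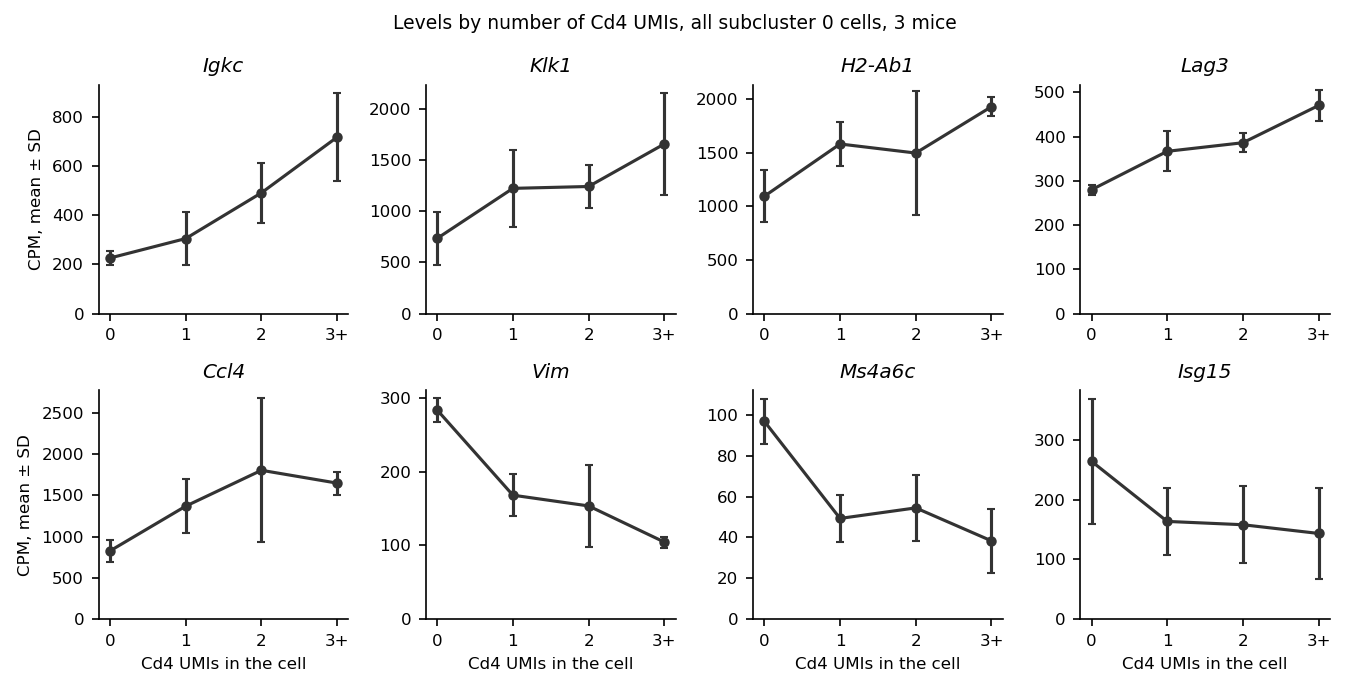
Level in CPM of 8 genes in all subcluster 0 cells with 0, 1, 2 and 3 or more Cd4 UMIs, as the mean of 3 mice with the SD as bars, each axis starting at 0. Igkc climbs at every step, to 719 CPM with 3 or more Cd4 UMIs, and Vim declines at every step, to 105 CPM.

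The levels of these genes were also read in the other subclusters of the Siglech cluster. Subcluster 13 was the one in which Cd4 was scarce. Of the 85 genes called higher with a Cd4 UMI, 78 had a lower mean level in subcluster 13 than in subcluster 0, and of the 52 called lower, 43 had a higher one. The same shares over all genes tested were not taken, so these counts have no background to be read against. Vim averaged 178 CPM in subcluster 0 and 2405 CPM in subcluster 13, Ms4a6c 61.0 and 969 CPM, Klk1 1229 and 8.37 CPM, and Igkc 457 and 8.82 CPM. The class II genes ran the other way, with H2-Ab1 at 1542 CPM in subcluster 0 and 4065 CPM in subcluster 13. These levels are descriptions, since the clusters were formed from the expression of such genes. Over the whole Siglech cluster, subcluster 13 included, H2-Ab1 was lower in cells with a Cd4 UMI (−0.22, adjusted p = 0.018), as was H2-Eb1 (−0.28, adjusted p = 0.0063), while Klk1 (1.46) and Vim (−2.23) kept their directions.

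Apod, which encodes the lipid carrier apolipoprotein D and stood at 23.6 CPM in subcluster 0 and 508 CPM in subcluster 13, was itself lower in subcluster 0 cells with a Cd4 UMI (−1.27 ± 0.20). Its values were 26.4, 14.3 and 10.6 CPM with, against 58.6, 34.9 and 34.6 CPM without, with no overlap. When cells with any Apod UMI were removed, 79 genes were called higher and 42 lower. Without those cells Ifitm3 (−0.48, adjusted p = 0.072), Isg15 (−0.33, adjusted p = 0.34), Isg20 (−0.29, adjusted p = 0.75), Ccr2 (−0.44, adjusted p = 0.15) Runx1 (−0.41, adjusted p = 0.36), Selplg (−0.10, adjusted p = 0.69) and Inpp5b (−0.66, adjusted p = 0.16) did not pass, nor did the higher genes Cd44 (0.21, adjusted p = 0.36) and Tlr12 (0.69, adjusted p = 0.059). The removal also left fewer cells, 112, 38 and 83 per class in mice 1, 2 and 3. How far cells resembling subcluster 13 contribute to the differences, whether lost or kept, was not tested.

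Subcluster 9 allowed the same comparison with fewer cells, 41, 11 and 30 per class in mice 1, 2 and 3. None of 5083 genes passed there (0% called) with edgeR, while 272 had an unadjusted p under 0.05. Of the genes called higher in subcluster 0, 82 could be tested and 77 lay above 0 in subcluster 9, with a median of 0.46. Of those called lower, 47 could be tested and 44 lay below 0, with a median of −0.39. Over all genes tested there, 2564 of 5083 lay above 0. Klk1 averaged 1506 ± 648 CPM with and 573 ± 144 CPM without a Cd4 UMI in subcluster 9 (log2 fold change 1.29 ± 0.22), Igkc 377 ± 149 CPM with and 175 ± 57.5 CPM without (1.20 ± 0.20), and Vim 109 ± 69.4 CPM with and 445 ± 188 CPM without (−1.65 ± 0.35).

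The class II genes had fold changes near 0 in subcluster 9. There H2-Ab1 averaged 1849 ± 245 CPM with and 2201 ± 1295 CPM without a Cd4 UMI (−0.03 ± 0.27), H2-Eb1 had a log2 fold change of −0.17 ± 0.33 and Cd74 of 0.06 ± 0.20. The difference of the 2 fold changes, subcluster 9 minus subcluster 0, was −0.80 ± 0.31 for H2-Ab1 (unadjusted p = 0.016) and −1.05 ± 0.37 for H2-Eb1 (unadjusted p = 0.0089). After adjustment over 6939 genes none of these differences passed (0% called, 293 at an unadjusted p under 0.05). A difference between the subclusters was therefore not shown for any gene.

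**Figure D5:**
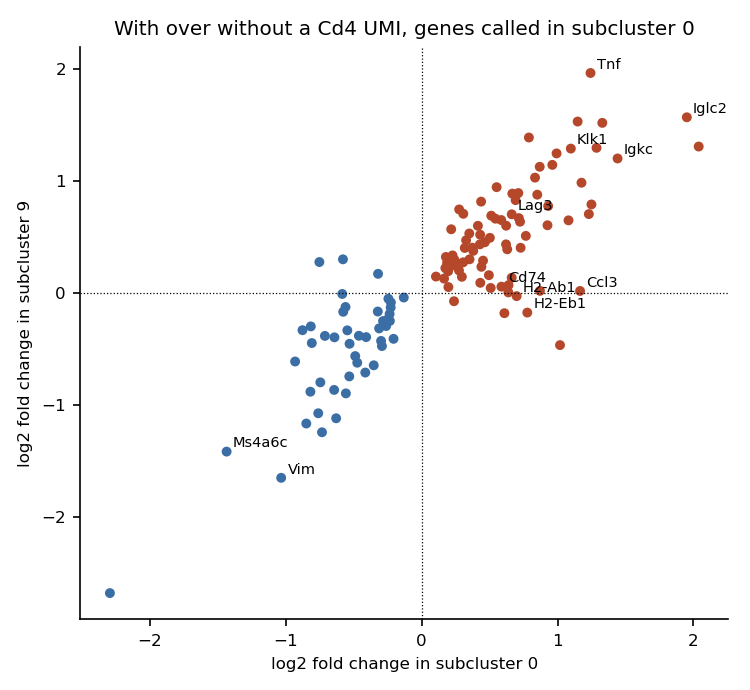
Log2 fold change, with over without a Cd4 UMI, in subcluster 0 (horizontal) and subcluster 9 (vertical) for the genes called in subcluster 0 and tested in both, red where higher and blue where lower in subcluster 0. Of the points, 77 of 82 red ones lie above 0 and 44 of 47 blue ones below 0 on the vertical axis, with Cd74, H2-Ab1, H2-Eb1 and Ccl3 near the horizontal line at 0.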

How the data were processed

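One gene expression library and one antibody-tag library of the same sort were described, and the values used here come from the gene expression library. Per the submitters' processing notes, Cell Ranger 3.1.0, Seurat 3.1.5 and mm10 were used. The filters applied are not given in the sources used here. The deposited matrix holds UMI counts without normalization for 15416 genes and 5976 cells, 103155608 UMIs in all. The totals in the authors' deposited annotation equalled its column sums in all 5976 cells. That annotation, per the file headers, also gives each cell's hashtag, the authors' cluster numbers and the percent of mitochondrially encoded UMIs. The hashtags assign 5968 cells to mice 1, 2 and 3 (2445, 1184 and 2339 cells), taken from the hashtag names. In the main test the mouse is a block, which takes up differences of level between the hashtags. Its p-values rest on how the difference between classes varied over these 3 hashtags, with information on spread shared across genes.

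The classes, gene lists and alternatives were chosen with earlier results of these data known. Cells of subcluster 0 with at least 1 and with 0 Cd4 UMIs were brought to equal numbers in each mouse and decile of total UMIs by random draws without replacement (seed 1), and UMIs were summed per mouse and class. The sums held 1815589, 631177 and 1225600 UMIs with a Cd4 UMI and 1792244, 630142 and 1213545 UMIs without. They were tested with edgeR 4.0.16 in R 4.3.3 (quasi-likelihood, TMM, filterByExpr, mouse as a block, since both classes come from the same animals), with Benjamini-Hochberg adjustment over all genes and a threshold of 0.05, two-sided. Fold changes are log2, and the SE printed with them is the absolute log2 fold change divided by the square root of the quasi-likelihood F. CPM are a class's UMIs scaled to a fixed total. They are not corrected for gene length, and no levels were compared between genes. DESeq2 1.42.0 served as the other tool. Shares have exact Clopper-Pearson 95% intervals. For shares across subclusters, every cell was reduced at random to 7537 UMIs (10th percentile of depth) and cells under that depth were dropped. Subcluster 9 had its own matched fit, and the difference between subclusters was an interaction term. No doublet caller was run, and instead cells with T cell or macrophage UMIs were removed in alternatives. Gene positions are from GENCODE M21.

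Named genes were, per direction, the 12 with the largest fold among called genes that reached 30 CPM in whichever class was higher and moved one way in 3 of 3 mice, leaving aside variable segments of receptors and immunoglobulins, gene models without a name, and genes of ribosomal proteins or mitochondria. To these were added the 3 members of each list with the smallest p and the fixed set Siglech, Ly6c2, Klra17, Ccr9, Jaml, Lag3, Ly6a, Cd8a and Lck. The ones printed were picked from these, and a few list members and markers were added with their values.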

Additional observations from a re-analysis of the deposited data

How the results depend on the processing

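Against 85 genes higher and 52 lower, scaling by RLE, testing without a low count filter, a gate at 2 Cd4 UMIs, no depth matching, matching on 20 quantiles or on gene number, thinned cells, and removal of cells with macrophage UMIs gave 76 to 96 higher and 47 to 67 lower. DESeq2 called 25 and 15, the fit with no replicate block 36 and 16, a threshold of 0.01 55 and 24, and removal of cells with any T cell receptor or Cd3 UMI, which left 104 cells per class, 21 and 10. The whole Siglech cluster, with more cells, gave 442 and 550. Leaving out each mouse gave 55 to 69 higher and 26 to 65 lower. Of the further draws, the fifth called 86 lower. Over the 5 draws, 129 genes were called higher and 109 lower in at least 1, against 46 and 30 in all 5. In the fourth draw 14 named genes lost their call and 3 gained one, and in the fifth 3 lost and 7 gained. Alternatives chosen after seeing the data removed cells with 3 or more T cell UMIs (94 and 63), with an Apod UMI (79 and 42) or above 1 in the authors' percent.hs column (77 and 50). The share of cells with a Cd4 UMI was 54.6% after thinning to 7537 UMIs, against 68.1%, and 66.8 to 70.8% with a mouse left out. The thinned cells of the gene counts above were instead reduced to 10964 UMIs, and their classes were not brought to equal cell numbers. Of the 50 named genes past the threshold, 8 values changed sign: in the whole Siglech cluster H2-Ab1 (−0.22), Cd74 (−0.035), H2-Eb1 (−0.28) and H2-Aa (−0.021), without cells of high percent.hs Hspb1 (0.41), and without cells with any T cell UMI Jun (−0.043), Btg2 (−0.11) and Cd209a (0.28). The causes were not tested. With 277 cells per class, genes of low level are measured with little precision, and a Cd4 count of 0 does not separate low expression from none.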
